A study of Mus musculus with 12 samples.

Results

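The 9 genes described here carry out or respond to retinoic acid signalling: Dhrs3, Aldh1a1, Aldh1a2, Aldh1a3, Crabp1, Crabp2, Rarb, Rarres2 and Cyp26b1. They were chosen with earlier results of these data known, so counts of them beside shares of all genes are a description. They were looked up by gene symbol. Each gene was measured by 1 probe set that carries only its symbol, so all 9 were found among the 19938 genes tested. The probe sets of the 5 genes that changed were 10461979 (Aldh1a1, chromosome 19), 10586865 (Aldh1a2, chromosome 9), 10564417 (Aldh1a3, chromosome 7), 10417713 (Rarb, chromosome 14) and 10585438 (Crabp1, chromosome 9). Retinoic acid is made from vitamin A in a pair of oxidation steps, retinol to retinaldehyde and then retinaldehyde to retinoic acid, and the second step is carried out by the ALDH1A dehydrogenases. Inside the cell it is carried by CRABP proteins, it activates RAR receptors bound to DNA with RXR partners, and it is broken down by CYP26 enzymes. In the developing heart, retinoic acid made in the epicardium by ALDH1A2 is known to act on the myocardium and on cells that give rise to fibroblasts.

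The cells were cardiac colony-forming-unit fibroblasts (cCFU-F), sorted from hearts of male C57BL/6 mice aged 12 weeks as positive for SCA1 and PDGFRα and negative for CD31, then cultured and used at passage 0. They received PDGF-AB at 50 ng/ml, a ligand of the PDGF receptors, AG1296 at 10 uM or at 1 uM, or nothing. AG1296 is a small molecule that blocks PDGF receptor kinase activity and also acts on c-Kit. Each of the 4 groups had 3 arrays, and the labels do not say whether these came from separate cultures or animals, so p-values measure the spread between arrays, which may be technical. How long the cells were treated, the vehicle of AG1296 and the retinoid content of the medium were not given in the sources used here. Effects of inhibitor and vehicle therefore cannot be told apart.

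Values are log2 expression, and array medians, taken over all 28853 probe sets, ran from 4.02 to 4.13. The array least like those of other groups was PDGF-AB replicate 1, with a mean r of 0.9897 across genes, which are not independent replicates. Of 11 measured fibroblast markers, 10 or 11 lay above the array median on every array of each group, but several moved between groups. With PDGF-AB, 4 of the 11 were higher and 3 lower than with AG1296 1 uM (limma, Benjamini-Hochberg adjusted p under 0.05). Against 10 uM, 1 was higher and 2 lower. Of all genes, 5.21% and 3.42% passed. Dcn averaged 7.18 with PDGF-AB, 8.39 with AG1296 10 uM, 9.35 with AG1296 1 uM and 7.64 in untreated cells. Pecam1, which encodes CD31, lay below the array median on all 12 arrays. Of 10 endothelial markers, 2 (Egfl7 and Flt1) lay above the array median on all 12 arrays. Pdgfra averaged 9.55 ± 0.14 with PDGF-AB, 9.02 ± 0.03 with AG1296 10 uM, 8.51 ± 0.05 with AG1296 1 uM and 9.42 ± 0.07 in untreated cells (SD, n = 3 each). In bulk RNA of this kind, fewer cells of a type and less RNA per cell cannot be told apart.

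The clearest differences lay between PDGF-AB and AG1296, and they were in the enzymes that make retinoic acid. Aldh1a1 and Aldh1a3 were lower and Aldh1a2 was higher with PDGF-AB than with either dose of the inhibitor. Against AG1296 10 uM, 3 of the 9 genes passed the test (limma, Benjamini-Hochberg adjusted p under 0.05 over all genes), with 1 higher and 2 lower. Of all genes, 3.42% passed in that comparison, 1.42% higher and the rest lower. Against AG1296 1 uM, 4 of 9 passed, 1 higher and 3 lower, the additional one being Rarb, while 5.21% of all genes passed, 2.28% higher and 2.93% lower. The arrays of the groups did not overlap for 3 of the 9 genes against 10 uM and 6 of 9 against 1 uM, beside 18.1% and 21.8% of all genes. The median log2 fold change of the 9 was -0.08 against 10 uM and 0.02 against 1 uM, beside 0.00 and 0.03 over all genes, so the set did not shift one way. Each of these 7 calls was kept under all 20 alternatives to the processing, which include leaving out each array in turn. Both comparisons share the PDGF-AB arrays, so their results are not independent.

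**Figure D1:**
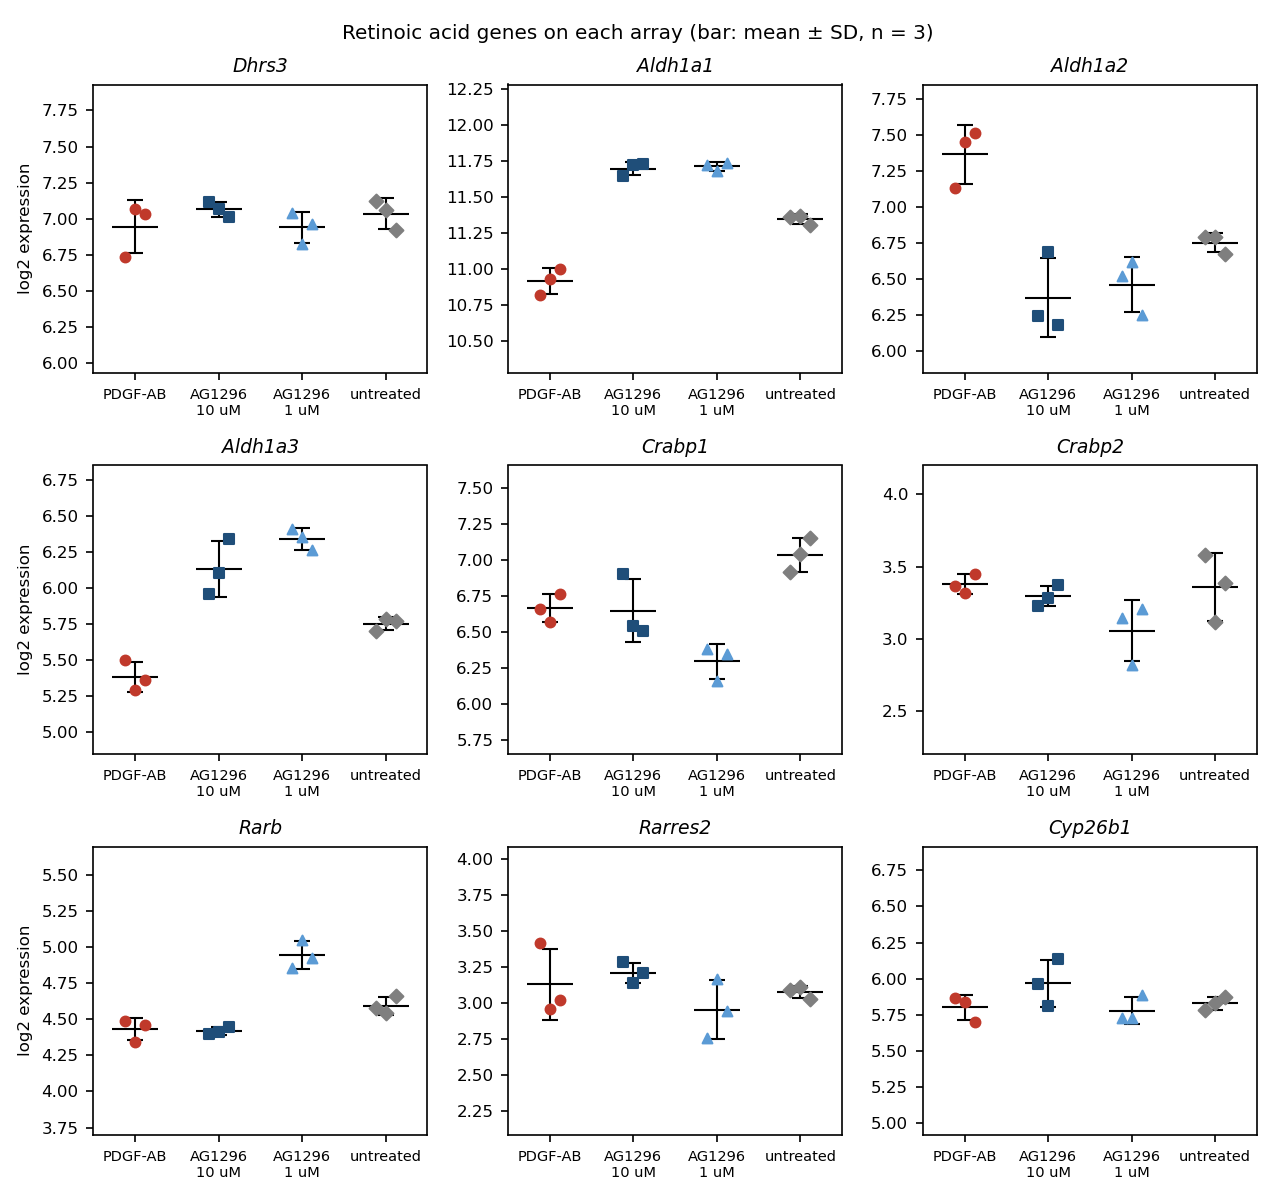
Log2 expression of each of the 9 genes on the 12 arrays (y axis, every panel spans the same range of 2 log2 units). Points are arrays, and bars give the mean ± SD of 3 arrays. Aldh1a1 and Aldh1a3 sit lowest with PDGF-AB and highest with AG1296, Aldh1a2 runs the other way, and Rarb is highest with AG1296 1 uM.

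Aldh1a1, the cytosolic dehydrogenase that oxidises retinaldehyde and also other aldehydes, had 10.82, 10.93 and 11.00 with PDGF-AB. It had 11.64, 11.72 and 11.73 with AG1296 10 uM and 11.72, 11.68 and 11.74 with AG1296 1 uM, against 11.36, 11.37 and 11.30 in untreated cells. The PDGF-AB arrays were all below the untreated ones, the AG1296 arrays were all above them, and the arrays of the 2 doses overlapped. PDGF-AB differed from AG1296 10 uM by -0.78 ± 0.08 on the log2 scale (SE; limma, adjusted p = 5.04e-05), 1.72-fold lower. The difference from AG1296 1 uM was -0.80 ± 0.08 (adjusted p = 2.32e-05). The doses differed by -0.02, with a 95% interval of -0.19 to 0.16 for 10 uM minus 1 uM.

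Against untreated cells the changes in Aldh1a1 were about as small as this design resolved. It fell with PDGF-AB (log2 fold change -0.43 ± 0.08, limma adjusted p = 0.0398) and rose with AG1296 10 uM (0.35 ± 0.08, adjusted p = 0.0386) and 1 uM (0.37 ± 0.08, adjusted p = 0.0213). These 3 comparisons share the untreated arrays. The PDGF-AB call was lost without any 1 of the 12 arrays and under 4 other settings, with adjusted p from 0.0538 to 0.254. The call at 10 uM was lost without any 1 AG1296 or untreated array or PDGF-AB replicate 2 and under 3 other settings (0.0533 to 0.156). The call at 1 uM was lost without any 1 AG1296 1 uM or untreated array and with only the 6 arrays compared (0.0525 to 0.0902).

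Aldh1a7 is a mouse paralog of Aldh1a1 with a very similar sequence, so their probes may share signal and the values of both genes are uncertain to that extent. It averaged 5.26 ± 0.16 with PDGF-AB, 6.28 ± 0.16 with AG1296 10 uM, 6.26 ± 0.37 with AG1296 1 uM and 5.34 ± 0.22 in untreated cells (SD, n = 3 each). It rose against untreated by 0.94 ± 0.17 at 10 uM (SE; limma, adjusted p = 0.0098) and by 0.92 ± 0.17 at 1 uM (adjusted p = 0.00747). With PDGF-AB its log2 fold change against untreated was -0.08, with a 95% interval of -0.45 to 0.28. Leaving out replicate 2 of AG1296 10 uM, or untreated replicate 1 or 3, ended the 10 uM call (limma, adjusted p up to 0.0584).

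Aldh1a3, the dehydrogenase with the narrowest preference for retinaldehyde among the ALDH1A enzymes, followed the order of Aldh1a1. It had 5.50, 5.29 and 5.36 with PDGF-AB, 5.96, 6.11 and 6.34 with AG1296 10 uM, 6.41, 6.36 and 6.26 with AG1296 1 uM, and 5.70, 5.78 and 5.78 in untreated cells. The 3 PDGF-AB arrays were below and the 6 AG1296 arrays above all untreated arrays. PDGF-AB was lower than AG1296 10 uM by 0.75 (log2 fold change -0.75 ± 0.10, SE; limma, adjusted p = 0.000674) and lower than AG1296 1 uM by 0.96 (-0.96 ± 0.10, adjusted p = 4.74e-05), or 1.94-fold. Against untreated cells it rose at 1 uM by 0.59 ± 0.10 (adjusted p = 0.00515), a call kept under all 20 alternatives.

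At 10 uM, Aldh1a3 stood at 0.38 ± 0.10 against untreated (limma, adjusted p = 0.0954). With PDGF-AB it stood at -0.37 ± 0.10 (adjusted p = 0.244). Neither passed, although the groups did not overlap in either comparison, as was so for 18.0% and 13.3% of all genes. The difference between the doses, -0.21 for 10 uM minus 1 uM, had a 95% interval of -0.43 to 0.02 and did not pass either (adjusted p = 0.582).

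Aldh1a2, the main retinoic acid-making enzyme of the embryo and of the epicardium, went the opposite way. It had 7.13, 7.45 and 7.51 with PDGF-AB, 6.24, 6.68 and 6.18 with AG1296 10 uM, 6.52, 6.62 and 6.25 with AG1296 1 uM, and 6.79, 6.79 and 6.68 in untreated cells. Every PDGF-AB array was above all other arrays. It was higher with PDGF-AB than with AG1296 10 uM by 1.00 ± 0.14 (SE; limma, adjusted p = 0.000997), 1.99-fold, and than with AG1296 1 uM by 0.91 ± 0.14 (adjusted p = 0.00149). Against untreated cells its values were 0.61 ± 0.14 with PDGF-AB (adjusted p = 0.140), -0.38 ± 0.14 with AG1296 10 uM (adjusted p = 0.296) and -0.29 ± 0.14 with AG1296 1 uM (adjusted p = 0.419), and none passed. With an intensity trend and robust moderation the first of these passed, at an adjusted p of 0.0156.

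**Figure D2:**
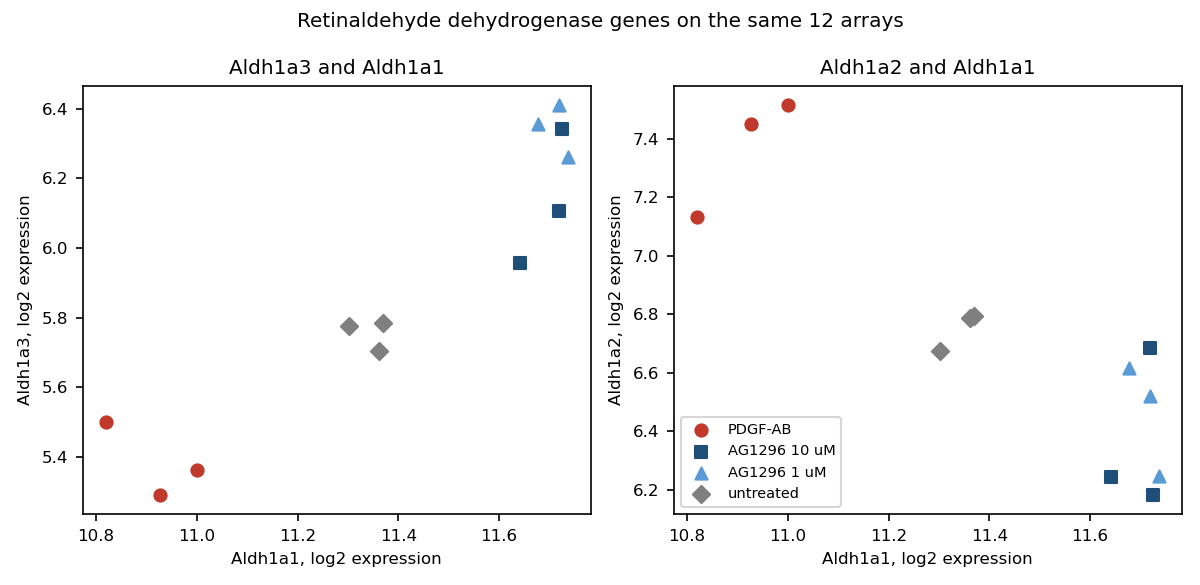
Log2 expression of Aldh1a3 (left) and Aldh1a2 (right) against that of Aldh1a1 on the same 12 arrays, coloured and shaped by group. PDGF-AB arrays lie at the low end of Aldh1a1, between 10.82 and 11.00, with low Aldh1a3 and high Aldh1a2. AG1296 arrays lie at the other end, between 11.64 and 11.74, and untreated arrays lie between.

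Aldh1a2 is also a marker of epicardium and mesothelium, so the 16 markers of those cells were read beside it. Their summed level ran from 9.33 to 9.55 on the log2 scale with PDGF-AB, 9.65 to 9.81 with AG1296 10 uM, 9.94 to 10.02 with AG1296 1 uM and 9.68 to 9.73 in untreated cells. Sema3d, the highest of the 16 in every group but PDGF-AB, set this order. Without it, a choice made after seeing the data, the sum of the other 15 ran from 8.98 to 9.21 with PDGF-AB, 8.87 to 9.005 with AG1296 10 uM, 8.99 to 9.02 with AG1296 1 uM and 9.19 to 9.29 in untreated cells. The PDGF-AB arrays then overlapped those of each other group. With PDGF-AB, 3 of the 16 were higher than with AG1296 1 uM (Upk1b, Lrrn4 and Krt19) and 2 lower (Upk3b and Sema3d). Against 10 uM, 2 were higher (Upk1b and Lrrn4) and 2 lower (Upk3b and Sema3d; limma, adjusted p under 0.05). Of all genes, 5.21% and 3.42% passed. Upk1b averaged 6.70 with PDGF-AB, 5.81 with AG1296 10 uM, 6.11 with AG1296 1 uM and 6.94 in untreated cells. Upk3b averaged 5.42, 6.19, 6.45 and 5.90 in that order. Wt1, the epicardial transcription factor, averaged 4.42 ± 0.04 with PDGF-AB, 4.28 ± 0.21 with AG1296 10 uM, 4.26 ± 0.18 with AG1296 1 uM and 4.35 ± 0.09 in untreated cells (SD, n = 3 each). The part of such cells in the Aldh1a2 difference was not tested.

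Single markers of other cells also moved with the dehydrogenases, and those named here were chosen after their values were seen. Of 10 leukocyte markers, Cd53 was higher with PDGF-AB than with AG1296 10 uM by 2.23 on the log2 scale (limma, adjusted p = 6.73e-05) and than with 1 uM by 1.73 (adjusted p = 0.000407), the direction of Aldh1a2. Lyz2 was lower, at -1.02 (adjusted p = 0.00634) and -0.79 (adjusted p = 0.0239), the direction of Aldh1a1 and Aldh1a3, and Tyrobp was lower than with 1 uM. Ptprc, which encodes the leukocyte antigen CD45, and Adgre1 lay below the array median on all 12 arrays. The summed leukocyte level ran from 7.17 to 7.46 with PDGF-AB, 7.24 to 7.44 with AG1296 10 uM, 7.24 to 7.47 with AG1296 1 uM and 7.05 to 7.23 in untreated cells. The highest of the 10 was Cd53 with PDGF-AB and Lyz2 in the other groups. This sum is therefore weighted to genes that moved in opposite directions and can hide their changes.

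Of 9 adipocyte markers, Pparg was higher with PDGF-AB than with AG1296 10 uM by 0.70 (limma, adjusted p = 0.0129) and than with 1 uM by 0.90 (adjusted p = 0.00136), and Lpl than with 1 uM. Their summed level ran from 7.75 to 7.80 with PDGF-AB, 7.39 to 7.58 with AG1296 10 uM, 7.28 to 7.41 with AG1296 1 uM and 7.44 to 7.63 in untreated cells, highest with PDGF-AB as Aldh1a2 was, while Adipoq lay below the array median on all 12 arrays. Of 8 cardiomyocyte markers, Tnnt2 was higher with PDGF-AB by 0.46 (adjusted p = 0.0099) and 0.38 (adjusted p = 0.0258), with Myh6 below the array median on all 12 arrays. The cardiomyocyte sum ran from 8.01 to 8.06 with PDGF-AB, 7.65 to 7.80 with AG1296 10 uM, 7.74 to 7.85 with AG1296 1 uM and 7.82 to 7.87 in untreated cells. Tnnt2 was the highest of the 8 in every group, and Pparg or Lpl the highest of the 9. Both sums are therefore weighted to genes already named. Of 10 pericyte and smooth muscle markers, Mcam and Cspg4 were higher with PDGF-AB than with 1 uM (limma, adjusted p under 0.05). Myh11 was lower with PDGF-AB than with 10 uM. Mcam averaged 7.06 with PDGF-AB, 6.77 with AG1296 10 uM, 5.94 with AG1296 1 uM and 7.36 in untreated cells. Of 10 endothelial markers, Tek was lower with PDGF-AB than with 1 uM, at 3.76 against 4.25. The part of these cells in the differences was not tested.

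The stretches just upstream of the annotated starts of Aldh1a1 and Aldh1a2 are shown because these genes moved in opposite directions. They are RefSeq sequence of GRCm38.p6, 250 bases ending at the base before the start, 5′ to 3′ on the gene's strand. Capitals mark the octamer ATGCAAAT and the pentamer CCAAT, each searched on both strands, with no overlap between the matches. RefSeq gave 2 starts for Aldh1a1, and the downstream one is printed (chr19:20601718-20601967, plus strand). Aldh1a2 is at chr9:71215539-71215788, plus strand.
Aldh1a1: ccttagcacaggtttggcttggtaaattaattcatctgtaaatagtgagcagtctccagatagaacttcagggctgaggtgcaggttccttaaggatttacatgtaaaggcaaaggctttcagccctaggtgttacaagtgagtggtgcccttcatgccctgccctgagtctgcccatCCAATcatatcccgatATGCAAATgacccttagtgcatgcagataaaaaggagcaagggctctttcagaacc
Aldh1a2: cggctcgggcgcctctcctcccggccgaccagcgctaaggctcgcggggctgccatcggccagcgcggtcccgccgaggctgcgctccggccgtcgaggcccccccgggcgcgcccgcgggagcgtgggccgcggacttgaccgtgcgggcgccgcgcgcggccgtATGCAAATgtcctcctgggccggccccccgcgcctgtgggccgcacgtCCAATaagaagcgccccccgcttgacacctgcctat
Both windows hold 1 octamer and 1 CCAAT. The window before the upstream start of Aldh1a1 holds neither, and it holds 1 TGACTCA, a motif found in 4.46% of windows. The octamer was found in 1.6% of 32817 upstream windows of the same length, CCAAT in 33.8%, and both together in 0.768%. The motifs were chosen after reading these sequences, so the matches are a description.

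Dhrs3, which reduces retinaldehyde back to retinol and is itself known to be induced by retinoic acid, was called in none of the 6 comparisons. Its 12 arrays lay between 6.73 and 7.13, and the 4 groups overlapped. The fold changes ran from -0.12 to 0.12 on the log2 scale, and their 95% intervals lay within -0.35 and 0.35. Cyp26b1, the enzyme that clears retinoic acid by oxidation, was likewise called in none, with arrays between 5.70 and 6.13. Its fold changes ran from -0.17 to 0.19, with intervals within -0.38 and 0.40. A change of 2-fold, which is 1 on this scale, lay outside every interval of both genes. This was also so for Aldh1a1, Rarb and Crabp1, which were called, so it does not set Dhrs3 and Cyp26b1 apart from them. Against untreated cells, Aldh1a1 was called at 0.35 with AG1296 10 uM and Rarb at 0.35 with AG1296 1 uM. These changes are about the size of the outermost limits for Dhrs3 and Cyp26b1, so smaller changes in those genes were not excluded.

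Crabp1, a cytosolic carrier that holds retinoic acid and hands it to CYP26 enzymes, was lower at the low dose of the inhibitor. It had 6.66, 6.57 and 6.76 with PDGF-AB, 6.90, 6.54 and 6.50 with AG1296 10 uM, 6.39, 6.16 and 6.35 with AG1296 1 uM, and 6.92, 7.04 and 7.15 in untreated cells. All 9 treated arrays lay below the 3 untreated ones. Against untreated, Crabp1 fell at 1 uM by 0.74 ± 0.12 on the log2 scale (SE; limma, adjusted p = 0.00235), 1.67-fold, a call kept under all 20 alternatives. The values of -0.39 ± 0.12 at 10 uM (adjusted p = 0.147) and -0.37 ± 0.12 with PDGF-AB (adjusted p = 0.346) did not pass. Without AG1296 10 uM replicate 1, which holds the highest treated value, the 10 uM difference passed, at an adjusted p of 0.0455, and with an intensity trend and robust moderation it passed at 0.0428.

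The difference in Crabp1 between the doses, 0.35 ± 0.12 for 10 uM minus 1 uM, did not pass (limma, adjusted p = 0.331), and nor did PDGF-AB against 1 uM at 0.37 ± 0.12 (adjusted p = 0.105). The comparison of PDGF-AB with 1 uM did pass with only genes above the array median (adjusted p = 0.0466) and with an intensity trend and robust moderation (adjusted p = 0.0355). Crabp2, the carrier that delivers retinoic acid to RAR in the nucleus, lay below the array median on all 12 arrays, between 2.82 and 3.58, where background limits the fold change. It was called in no comparison, with fold changes from -0.30 to 0.32.

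Rarb, the receptor gene that retinoic acid induces most directly, was highest at the low dose. It had 4.49, 4.34 and 4.46 with PDGF-AB, 4.40, 4.41 and 4.45 with AG1296 10 uM, 4.86, 5.05 and 4.92 with AG1296 1 uM, and 4.58, 4.54 and 4.66 in untreated cells. All 1 uM arrays lay above the other 9, and those with PDGF-AB and AG1296 10 uM overlapped. All lay above their array's median over all probe sets, but near the middle of the 19938 genes. The mean percentile among genes was 49.65 with PDGF-AB, 49.49 with AG1296 10 uM, 56.09 with AG1296 1 uM and 52.02 in untreated cells. PDGF-AB was lower than AG1296 1 uM by 0.51 (log2 fold change -0.51 ± 0.08, SE; limma, adjusted p = 0.00189), a call kept under all 20 alternatives.

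Against untreated cells Rarb rose at 1 uM by 0.35 ± 0.08 (limma, adjusted p = 0.0382). AG1296 10 uM was lower than 1 uM, at -0.53 ± 0.08 (adjusted p = 0.0166). Rarb was the 1 gene of the 9 called between the doses, where 0.376% of all genes passed, 0.196% higher and 0.181% lower. The arrays of the doses did not overlap for 3 of the 9, beside 15.9% of all genes. PDGF-AB differed from AG1296 10 uM by 0.01, with a 95% interval of -0.17 to 0.19. The call of 1 uM against untreated was lost without any 1 array of either group, without AG1296 10 uM replicate 1 or 2 or PDGF-AB replicate 3, and under 3 other settings (adjusted p from 0.0518 to 0.157). The call between the doses was lost without AG1296 1 uM replicate 2 or 3 or any 1 AG1296 10 uM array and with only the 6 arrays compared (0.0644 to 0.0938).

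The upstream stretch of Rarb is shown because it holds a direct repeat of the kind RAR and RXR bind, and Rarb was the receptor gene that moved. It is 250 bases of RefSeq sequence of GRCm38.p6 at chr14:16575477-16575726, minus strand, printed 5′ to 3′ as the gene reads, with the repeat in capitals.
Rarb: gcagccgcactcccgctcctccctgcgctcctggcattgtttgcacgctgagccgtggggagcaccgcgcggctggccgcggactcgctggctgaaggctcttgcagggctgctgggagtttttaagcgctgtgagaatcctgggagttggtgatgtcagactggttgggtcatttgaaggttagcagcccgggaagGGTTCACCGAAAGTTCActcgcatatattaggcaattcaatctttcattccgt
The search was for a pair of hexamers from the set AGGTCA or AGTTCA or GGGTCA or GGTTCA, in the same orientation with 5 bases between them, on both strands. It matched in 29 of the 32817 windows, or 0.0884%. The stretch was picked for holding this repeat, so the match and its share are a description. Repeats spaced by 2 bases and by 1 base were found in 0.174% and 0.165% of windows, and in none of the 9 windows of the 6 genes that RefSeq matched. Among these 9 windows the repeat spaced by 5 was found in that of Rarb alone. No match says only that these letters are not in these windows.

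Rarres2 encodes chemerin, a secreted attractant of leukocytes and an adipokine, named for its response to retinoids in human skin. It lay below the array median on all 12 arrays, between 2.76 and 3.41, and was called in no comparison, with fold changes from -0.12 to 0.25 and adjusted p from 0.538 to 0.949. Its receptors Cmklr1, Gpr1 and Ccrl2 were called in none either.

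**Figure D3:**
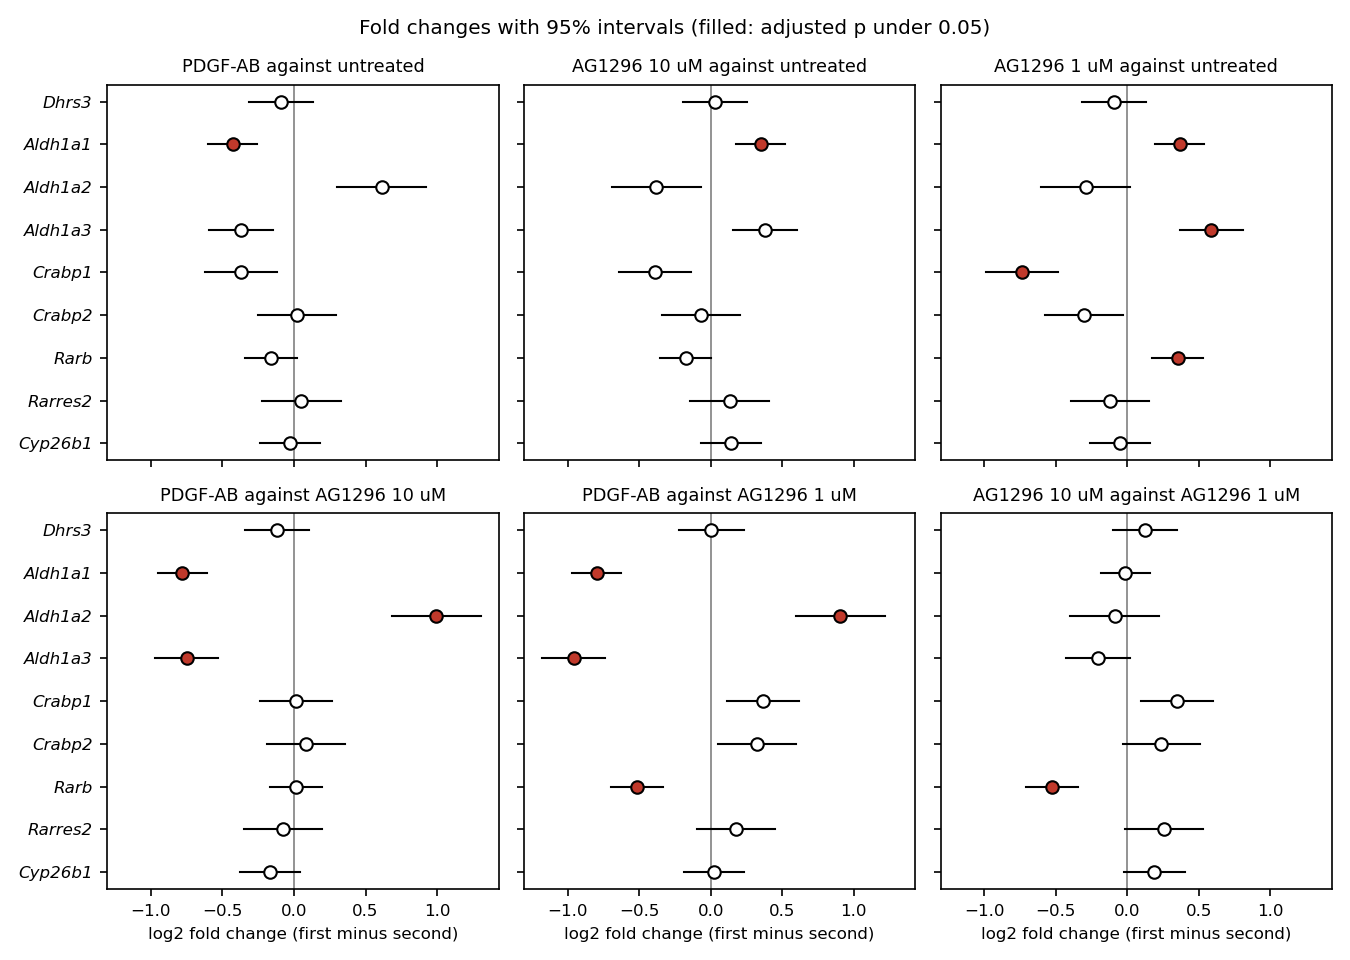
Log2 fold change of the 9 genes in the 6 comparisons (x axis, group named first minus group named second), with 95% intervals from the limma fit. Filled points passed at an adjusted p under 0.05. The 3 dehydrogenases pass in both comparisons of PDGF-AB with AG1296, with Aldh1a2 on the opposite side of 0 from Aldh1a1 and Aldh1a3.

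Against untreated cells, the count depended on the treatment. With PDGF-AB it was 1 of 9, Aldh1a1, which was lower, and 0.331% of all genes passed, 0.120% higher and 0.211% lower. With AG1296 10 uM it was 1 of 9, Aldh1a1, which was higher, and 1.88% of all genes passed, 1.21% higher and 0.672% lower. With AG1296 1 uM it was 4 of 9, of which Aldh1a1, Aldh1a3 and Rarb were higher and Crabp1 lower, and 3.20% of all genes passed, 1.88% higher and 1.33% lower. In each of these 3 comparisons the arrays did not overlap for 5 of the 9 genes, beside 13.3%, 18.0% and 20.3% of all genes. The median log2 fold changes of the 9 were -0.09, 0.03 and -0.09 in that order, beside 0.01, 0.01 and -0.01 over all genes. Altogether 5 of the 9 were called in at least 1 comparison, and Dhrs3, Cyp26b1, Crabp2 and Rarres2 in none.

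The other genes of the pathway were read from 6 lists of retinol uptake, retinol and retinaldehyde conversion, degradation, receptors and cofactors, known response genes and chemerin receptors, with 84 genes measured. These lists too were chosen with earlier results of these data known, so their shares are a description. Against AG1296 10 uM, 3 of them were higher and 5 lower with PDGF-AB, and against AG1296 1 uM 4 were higher and 7 lower. Against untreated cells, 5 were higher at 10 uM, 6 at 1 uM and 1 with PDGF-AB, and none was lower (limma, adjusted p), with 5, 5 and 6 lower at an unadjusted p under 0.05. Between the doses 0 were called, with 5 at an unadjusted p under 0.05. As shares of the 84, the calls were 9.52% and 13.1% for PDGF-AB against 10 uM and 1 uM, beside 3.42% and 5.21% of all genes. They were 5.95% at 10 uM, 7.14% at 1 uM and 1.19% with PDGF-AB against untreated, beside 1.88%, 3.20% and 0.331% of all genes, and 0.376% of all genes passed between the doses. The median of the 84 was -0.01, 0.07, 0.06, -0.01 and 0.06 in those comparisons, beside 0.00, 0.03, 0.01, -0.01 and 0.01 over all genes.

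Fabp5, a lipid carrier that can deliver retinoic acid to the receptor PPAR delta, had the smallest adjusted p among these between PDGF-AB and AG1296. It had 6.17, 6.29 and 6.17 with PDGF-AB, 7.14, 7.14 and 6.83 with AG1296 10 uM, 7.18, 7.29 and 7.11 with AG1296 1 uM, and 6.47, 6.58 and 6.54 in untreated cells. The PDGF-AB arrays lay below and the AG1296 arrays above all untreated ones. PDGF-AB was lower than 1 uM by 0.98 (log2 fold change -0.98 ± 0.10, SE; limma, adjusted p = 2.53e-05) and than 10 uM by 0.83 (-0.83 ± 0.10, adjusted p = 0.00021). Against untreated it rose by 0.66 at 1 uM (adjusted p = 0.00157) and by 0.51 at 10 uM (adjusted p = 0.0161). Leaving out replicate 1 or 2 of AG1296 10 uM or untreated replicate 1 or 3, or using only the 6 arrays compared, ended the 10 uM call (limma, adjusted p up to 0.089).

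Among the enzymes that act on retinol, Dhrs9, which can oxidise retinol to retinaldehyde, was higher with PDGF-AB than with AG1296. It averaged 5.26 ± 0.20 with PDGF-AB, 4.52 ± 0.19 with AG1296 10 uM, 4.48 ± 0.21 with AG1296 1 uM and 4.94 ± 0.07 in untreated cells (SD, n = 3 each). The log2 fold change was 0.75 against 10 uM (limma, adjusted p = 0.00461) and 0.79 against 1 uM (adjusted p = 0.0022), both kept under all 20 alternatives. Adh7, an alcohol dehydrogenase that acts on retinol, was higher with PDGF-AB than with 1 uM by 0.63 (adjusted p = 0.00289), but most of its arrays lay below the array median. Rdh10, the main retinol dehydrogenase of the embryo, was called in none, with 6.10 ± 0.07 with PDGF-AB, 5.80 ± 0.09 with AG1296 10 uM, 5.88 ± 0.09 with AG1296 1 uM and 6.06 ± 0.13 in untreated cells (SD, n = 3 each). Rdh13 was higher with PDGF-AB than with 10 uM by 0.51 (adjusted p = 0.0169) and Dhrs7 lower than with 1 uM, at -0.54 (adjusted p = 0.0117). The first call was lost under 4 and the second under 3 of 20 alternatives, with adjusted p up to 0.07475 and 0.0555. Rdh7 was lower with PDGF-AB than with 10 uM, at -0.34 (adjusted p = 0.0438), but lay below the array median on all 12 arrays, and its call was lost under 16 of 19 alternatives.

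**Figure D4:**
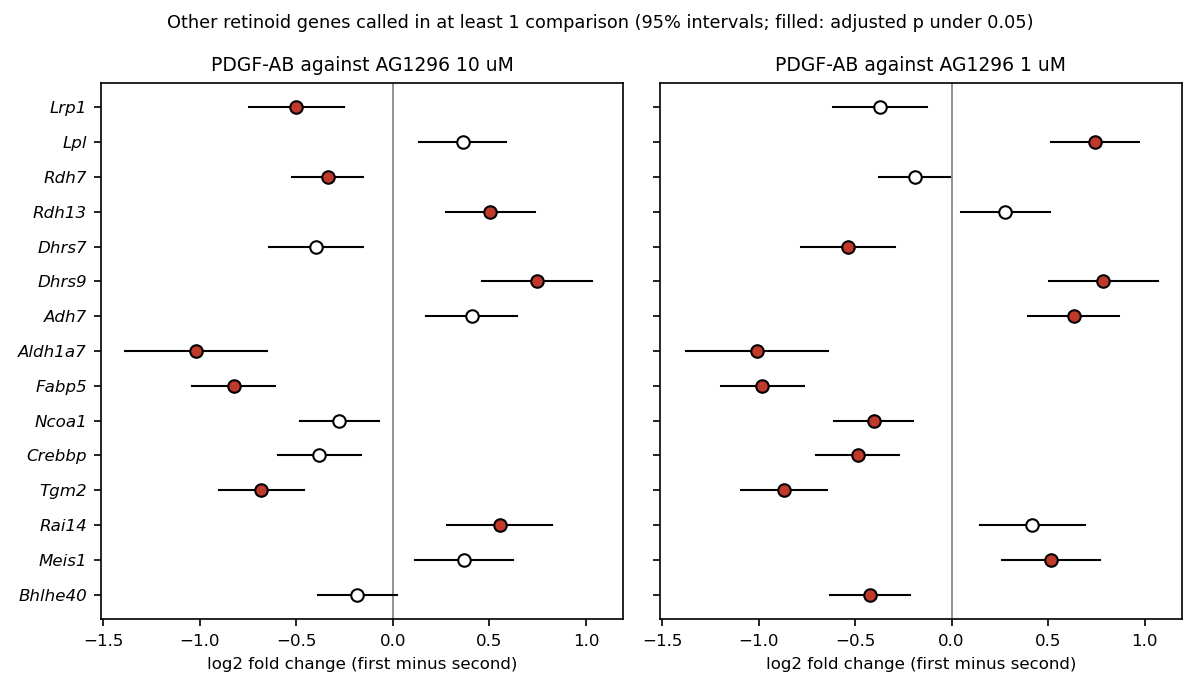
Log2 fold change (x axis) of the 15 other retinoid genes that were called in at least 1 comparison, for PDGF-AB minus AG1296 10 uM (left) and PDGF-AB minus AG1296 1 uM (right), with 95% intervals from the limma fit. Filled points passed at an adjusted p under 0.05. Aldh1a7, Fabp5 and Tgm2 were lower and Dhrs9 was higher with PDGF-AB in both.

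Tgm2, the transglutaminase that retinoic acid induces in many cells, had the largest difference among the response genes that were called. It had 7.17, 6.92 and 7.14 with PDGF-AB, 7.88, 7.84 and 7.56 with AG1296 10 uM, 7.95, 7.93 and 7.96 with AG1296 1 uM, and 7.50, 7.58 and 7.44 in untreated cells. PDGF-AB was below all untreated arrays, 1 uM was above them all, and 10 uM overlapped untreated at its lowest array. The log2 fold change of PDGF-AB was -0.87 ± 0.10 against 1 uM (SE; limma, adjusted p = 0.000109) and -0.68 ± 0.10 against 10 uM (adjusted p = 0.00132). Tgm2 rose at 1 uM against untreated by 0.44 (adjusted p = 0.0332), but not without any 1 AG1296 1 uM or untreated array or with median centring (adjusted p up to 0.126).

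Of the other response genes, Bhlhe40, a transcriptional repressor, rose against untreated by 0.65 at 1 uM (limma, adjusted p = 0.00134), kept under all 20 alternatives, and by 0.41 at 10 uM (adjusted p = 0.0443). The 10 uM call was lost under 13 of 20 alternatives. It was lower with PDGF-AB than with 1 uM, at -0.42 (adjusted p = 0.0179). Rai14 was higher with PDGF-AB than with 10 uM by 0.55 (adjusted p = 0.0269), and Meis1, a homeobox factor, higher than with 1 uM by 0.52 (adjusted p = 0.01995). Each of these 3 calls was lost under 4 of 20 alternatives. The Hox genes measured were called in none of the 6 comparisons.

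Among the receptor genes other than Rarb, Rara, Rarg, Rxra, Rxrb and Rxrg were called in no comparison. All but Rxrg lay above the array median on all 12 arrays. Rarg averaged 6.33 ± 0.22 with PDGF-AB, 6.30 ± 0.16 with AG1296 10 uM, 6.37 ± 0.06 with AG1296 1 uM and 6.24 ± 0.04 in untreated cells (SD, n = 3 each). The coactivator Crebbp rose against untreated by 0.55 at 1 uM (limma, adjusted p = 0.00666), kept under all 20 alternatives, and by 0.45 at 10 uM (adjusted p = 0.0367), which was lost under 11 of 20. It was lower with PDGF-AB than with 1 uM, at -0.49 (adjusted p = 0.00997, and 0.0566 with only the 6 arrays compared). Ncoa1, another coactivator, was lower with PDGF-AB than with 1 uM, at -0.40 (adjusted p = 0.0235), lost under 6 of 20 alternatives.

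In retinoid uptake, Lrp1, a receptor that takes up lipoprotein remnants carrying retinyl esters among many ligands, rose with AG1296. It averaged 8.70 ± 0.23 with PDGF-AB, 9.20 ± 0.14 with AG1296 10 uM, 9.07 ± 0.05 with AG1296 1 uM and 8.36 ± 0.06 in untreated cells (SD, n = 3 each). The log2 fold changes against untreated were 0.83 at 10 uM (limma, adjusted p = 0.00135) and 0.70 at 1 uM (adjusted p = 0.00272), kept under all 20 alternatives. Lrp1 was lower with PDGF-AB than with 10 uM, at -0.50 (adjusted p = 0.0263), a call lost under 4 of 20 alternatives. Lpl, the lipase that frees fatty acids and retinol from those particles, was higher with PDGF-AB than with 1 uM by 0.74 (adjusted p = 0.000578). It rose with PDGF-AB against untreated by 0.56 (adjusted p = 0.0447), lost under 13 of 20 alternatives. The retinol receptor gene Stra6 was called in no comparison, and its values straddled the array median.

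Likeness to the 5 called genes was measured by Pearson's r over the 12 arrays among 17062 other named genes. The arrays fall into 4 groups, so r here mostly follows the order of the group means and is given as a description. The genes closest to Aldh1a1 were Hccs (r = 0.986), Adamts5 (r = 0.986) and Zfp521 (r = 0.985). Those closest to Aldh1a3 were Col12a1 (r = 0.965), Col5a2 (r = 0.964) and Wwc2 (r = 0.956). Closest to Aldh1a2 were Gpr137b (r = 0.961), Prrx1 (r = 0.944) and Nr4a3 (r = 0.942). For Rarb these were Ndufaf4 (r = 0.944), Ccl17 (r = 0.941) and Eif4ebp1 (r = 0.909), and for Crabp1 they were Gng11 (r = 0.934), Fkbp14 (r = 0.926) and Anxa2 (r = 0.917).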

How the data were processed

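Per the labels, biotin targets for 1-colour Affymetrix arrays were made from total RNA of cultured cCFU-F with the maker's WT kit. Per the submitters' processing notes, the authors used RMA and limma, with no versions. The deposited log2 values per probe set were used as they are. Their log base was read from their range, and background correction and normalization by RMA compress changes of dim genes. Of 28853 probe sets, 21789 had exactly 1 symbol in the platform annotation. The one with the highest mean was kept for the 999 genes with several, which left 19938 genes. All 12 arrays entered 1 limma fit (limma 3.58.1, R 4.3.3) with a mean per group, and a gene was called at a two-sided Benjamini-Hochberg adjusted p under 0.05 within a comparison. The code was tested on simulated data. Precision is limited by having few arrays per group. The members and gene lists were chosen with earlier results of these data known. Outside the 9 genes, those of the retinoid lists called in at least 1 comparison were named, with a few by role, and the 3 genes most like each called member, leaving out predicted, Rik, olfactory, vomeronasal and small RNA genes. The alternatives were quantile normalization, median centring, all probe sets, the mean of a gene's probe sets, a filter on dim genes (a mean above the array median in at least 1 group), trended robust moderation, only the 6 arrays compared, a replicate block, and leaving out each array.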

Additional observations from a re-analysis of the deposited data

How the results depend on the processing

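Of 54 values of the 9 genes in the 6 comparisons, 14 were called, and 9 of these calls were kept under all 20 alternatives. The 9 are those between PDGF-AB and AG1296 and, for 1 uM against untreated, those of Aldh1a3 and Crabp1. No called value changed sign. The count of the 9 genes called for PDGF-AB against untreated was 1, and it was 0 with median centring, all probe sets, the replicate block or only the 6 arrays compared and 2 with an intensity trend and robust moderation. For AG1296 10 uM against untreated it was 1, and 0 with median centring, all probe sets or only the 6 arrays compared, 2 with only genes above the array median and 3 with trend and robust moderation. With only the 6 arrays compared it was 2 in place of 4 for AG1296 1 uM against untreated, and 0 in place of 1 for 10 uM against 1 uM. In the 3 comparisons with a count of 0 under some setting, 4, 4 and 2 of the 9 had an unadjusted p under 0.05 in the limma fit of all arrays. Leaving out 1 array gave 0 to 0, 0 to 1, 2 to 4 and 0 to 1 in these 4 comparisons, 3 to 3 for PDGF-AB against AG1296 10 uM and 4 to 4 against 1 uM. Settings with fewer arrays estimate the spread from fewer values, and the cause of the changes in count was not tested. The counts over all genes, 66, 375, 639, 75, 682 and 1039 for PDGF-AB, 10 uM and 1 uM against untreated, 10 uM against 1 uM and PDGF-AB against 10 uM and 1 uM, ran from 21 to 62, 219 to 434, 349 to 718, 16 to 82, 455 to 627 and 696 to 1012 with 1 array left out. Trend and robust moderation gave 160, 686, 1010, 209 and 1077 in the first 5 of these, and only the 6 arrays compared gave 7, 218, 14, 391 and 691 in all but 1 uM against untreated. The filter on dim genes, which left 11304 of the 19938 genes, gave 115, 633, 960 and 160 in the first 4. Replicate numbers were shared between groups, and nothing in the labels says that a number marks a shared animal or batch. Deviations of same-numbered arrays correlated over 0.1 in 9 of 18 pairs, which were 6 of 6 for number 2, 3 of 6 for number 3 and 0 of 6 for number 1, and 8 of 12 arrays correlated best with their own number. Same-numbered pairs ran from -0.0307 to 0.298, and pairs of different numbers from -0.243 to 0.181. The data thus hint at a shared factor for some numbers, but not every same-numbered pair was over 0.1, the condition set for taking the numbers as pairs. The replicate block ended 1 call of the 9 genes, that of Aldh1a1 with PDGF-AB against untreated (adjusted p = 0.0588). Rarres2 and Crabp2 lay below the array median throughout, where signal limits what can be seen.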
